A study of Caenorhabditis elegans with 119 samples.

Results

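The C-type lectin genes of the nematode Caenorhabditis elegans are described here across adult ageing and across exposure to sulforaphane, an isothiocyanate derived from broccoli. The genes were taken as every protein-coding gene of the count tables whose symbol begins with clec-. This gave 240 of 46926 counted genes, of which 19985 were protein coding. The 240 genes carried 237 distinct symbols, because 6 genes shared a symbol with another copy (clec-15, clec-209 and clec-249). RNA of whole worms was sequenced in libraries each made from about 50 worms. All worms were kept at 20 °C on E. coli OP50-1 with 51 µM FUdR, which blocks the production of offspring, and from day 1 of adulthood on plates with 0.25% DMSO, with sulforaphane (SFN) or without it. The dose of SFN is not given in the sources used here.

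Wild-type N2 worms were collected at adult days 2, 4, 8, 12 and 16, with 4 SFN and 4 DMSO libraries at each age. A further 40 N2 libraries, all DMSO controls of trials 2 and 3, gave 8 libraries at each of the same 5 ages. Strain PX991, which carries the allele daf-16(fx107), and strain EU1, which carries skn-1(zu67), were collected at days 4 and 12 with SFN and with DMSO. PX991 had 4 libraries per group, and EU1 had 6, except for 5 in the SFN group at day 4. Each mutant is represented by 1 strain with 1 allele, and whether the EU1 worms were homozygous for skn-1(zu67) is not given in the sources used here. EU1 replicates 4, 5 and 6 were collected at other times than replicates 1 to 3, and collection was a term of the EU1 fit. Insulin signalling in the worm acts through DAF-16, its FOXO factor, and SKN-1 corresponds to the Nrf factors of mammals.

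C-type lectin-like domains are protein folds, some of which bind sugars, often in the presence of calcium. Nematodes have a greatly expanded family, and many members are predicted to be secreted. Several are expressed in the intestine and are induced by bacterial infection, in part downstream of the p38 MAP kinase PMK-1 pathway, and a few have been shown to alter survival on pathogens. Other members are expressed elsewhere, and the function of most of them is unknown.

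Libraries held between 444501 and 12536097 counts. The 2 libraries with the fewest members detected were N2 DMSO replicate 4 at day 4, in which 30 members had a count, and DMSO replicate 1 at day 2, in which 38 did. The transcript of skn-1 ranged from 77.0 to 147 CPM (counts scaled to a common library size) in EU1 against 223 to 331 CPM in the treated N2 series and its controls. The transcript of daf-16 ranged from 55.4 to 178 CPM in PX991 against 109 to 263 CPM in that N2 series. These levels overlap for daf-16, and they come from separate tables that were not tested against each other. No 2 replicate libraries agreed within counting noise, since chi-square per degree of freedom was between 2.21 and 250 over 199 pairs (249.69 at the highest). The labels call replicates of a group biological, and p-values measure the spread between these libraries.

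Few C-type lectin genes were abundant. In the 40 libraries of the treated N2 series, 31 members averaged above 10 CPM, and the 12 most abundant made up 84.1% of the summed CPM assigned to the family. In all libraries together, 113 members had fewer than 100 counts and 3 had none. A count of 0 allows up to 3 counts over all libraries, so these are not shown to be absent. The number of members that passed the expression filter was 81 in the treated N2 series, 54 in PX991, 59 in EU1 and 58 in trials 2 and 3. A total of 48 passed in every fit and 152 in none. Members left untested in the treated N2 series averaged at most 1.03 CPM, with a median of 0.0575 CPM. Every count below refers to tested members, not to the family of 240.

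Per kilobase of exon, clec-87 (WBGene00007709, chromosome I, 10184462 to 10185520, WBcel235) was the most abundant member, at a mean level of 1199 CPM per kilobase in the treated N2 series. It was followed by clec-63 at 476, clec-88 at 353, clec-50 at 317 and clec-91 at 290 on the same scale. The next group, clec-1, clec-146, clec-150, clec-65 and clec-85, lay between 91.1 and 139. The abundance of clec-87 did not pass the test for SFN at day 12 (log2 fold change -0.11, edgeR adjusted p = 0.48).

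Taken as a whole, the family took up a small and, late in life, shrinking part of the counted reads. In N2 on DMSO, its share was 0.483% ± 0.026 (SD, n = 4) at day 2, 0.473% ± 0.026 at day 4, 0.520% ± 0.022 at day 8, 0.304% ± 0.020 at day 12 and 0.213% ± 0.018 at day 16. With SFN the shares were 0.461% ± 0.022, 0.554% ± 0.037, 0.597% ± 0.061, 0.373% ± 0.030 and 0.254% ± 0.016. The lowest SFN library was above the highest DMSO library at days 4 and 12 and libraries overlapped at days 2, 8 and 16. In PX991 at day 12 the share was 0.177% ± 0.022 with SFN and 0.210% ± 0.0085 with DMSO, so that it was not larger with SFN. In EU1 at day 12 it was 0.261% ± 0.021 with SFN and 0.243% ± 0.026 with DMSO. The share weighs abundant genes most and can move apart from the number of genes that changed.

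**Figure D1:**
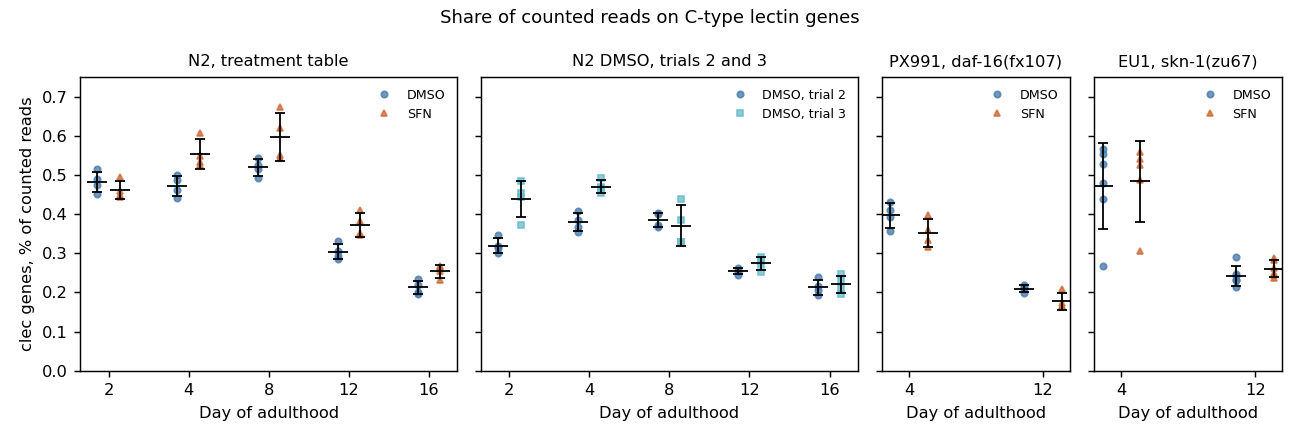
Share of counted reads assigned to the 240 C-type lectin genes in each library (vertical axis, percent), by adult age (days), strain and treatment; each point is 1 library and bars are group means. The share of N2 DMSO libraries was 0.483% at day 2 and 0.213% at day 16, and the SFN mean was above the DMSO mean at days 4, 8, 12 and 16.

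The genes were unevenly placed in the genome. Chromosome V held 86 members (35.8% of members against 25% of protein-coding genes), and the X chromosome held 3 (1.25% against 13.7%). Many lay side by side: the longest run with neighbours within 10000 bases was on chromosome V from 16839121 to 16869840 and held 13 members. A run on chromosome IV from 3922165 to 3975721 held 11, including clec-67, clec-71 and clec-74. Reads that match several related genes, such as the clec-209 copies, may be lost or split, and values of near-identical members are uncertain. Counting set no strand in the treated N2 series, per the file headers, so overlapping genes on opposite strands cannot be told apart.

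During ageing without SFN, most tested C-type lectin genes fell. In trials 2 and 3, which no SFN comparison uses, 42 of 58 tested members were lower at day 16 than at day 2 and 8 were higher by edgeR's quasi-likelihood test (adjusted p under 0.05). Of all 10899 genes, 63.6% were called in that comparison, 31% lower and 32.7% higher. The median log2 fold change was -2.12 over the members and 0.03 over all genes. The fall was spread over the middle of life. From day 2 to day 4, 8 members were lower and 11 higher (18.4% of all genes called). From day 4 to day 8, 22 were lower and 10 higher (28.5%), and from day 8 to day 12, 35 were lower and 5 higher (31.8%). From day 12 to day 16, 12 were lower and none higher by edgeR (8.99% of all genes called, 3.87% higher and 5.12% lower). At that step 23 members in either direction had an unadjusted p under 0.05, and neither DESeq2 nor limma-voom called a member higher.

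The steepest declines were near loss of the transcript. The level of clec-47 (WBGene00011668, chromosome V, 15175759 to 15176324) was 103.96, 243 and 432 CPM (lowest, median and highest of 8 libraries) at day 2 and 0, 0.154 and 0.582 CPM at day 16. The age groups did not overlap, and the log2 fold change was -9.68 ± 0.40 (SE, edgeR adjusted p = 4.36e-21), with 6 counts at day 16 in all 8 libraries together. The level of clec-67 (WBGene00018971, chromosome IV, 3922165 to 3925039), an infection-response gene that depends on PMK-1, was 13.4, 34.3 and 60.1 CPM at day 2 and 0, 0 and 0.463 CPM at day 16. It had only 3 counts in all day 16 libraries, so no fold is given. Large falls were also called for clec-210, clec-51, clec-223 and clec-190, which had between 2 and 8 counts in all day 16 libraries. Their levels at day 2 averaged from 12.95 to 34.3 CPM.

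Of the 16 members listed for a published role, 8 were tested in trials 2 and 3. From day 2 to day 16, 7 of them were lower (clec-41, clec-49, clec-67, clec-71, clec-85, clec-86 and clec-87), none was higher by edgeR, and clec-52 was not called (-0.25 ± 0.39, edgeR adjusted p = 0.594). The level of clec-85 (WBGene00021872, chromosome IV, 2850886 to 2855456), a target of the PMK-1 pathway, was 55.9, 73.2 and 97.2 CPM at day 2 and 0, 1.90 and 5.09 CPM at day 16. It fell by 4.93 ± 0.32 on the log2 scale (edgeR adjusted p = 2.29e-15), without overlap. The abundant clec-50 (WBGene00012253, chromosome V, 19752399 to 19755368), which is not on that list, was at 117, 180.1 and 313 CPM at day 2 and 5.35, 9.14 and 15.6 CPM at day 16. It fell by 4.22 ± 0.29 (edgeR adjusted p = 1.65e-14), also without overlap. Log2 falls were also called for clec-49 (-4.53), a gene reported to protect against Serratia, clec-86 (-4.002), clec-41 (-3.51) and clec-71 (-2.94). The abundant clec-87 fell least among those named, at -0.51 on the log2 scale, and its day 2 and day 16 libraries overlapped.

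A minority ran the other way. The level of clec-266 (WBGene00016088, chromosome X, 6617393 to 6622915) was 3.58, 14.3 and 20.1 CPM at day 2 and 102, 152 and 273 CPM at day 16. Every day 16 library was above every day 2 library, and the log2 fold change was 3.80 ± 0.35 (edgeR adjusted p = 1.97e-11). The level of clec-264 was 2.39, 5.66 and 9.11 CPM at day 2 and 21.1, 30.96 and 53.7 CPM at day 16 (log2 fold change 2.49 ± 0.23, edgeR adjusted p = 5.63e-13). The level of clec-146 (WBGene00013008, chromosome II, 13590641 to 13593774) was 7.56, 10.3 and 20.9 CPM at day 2 and 15.4, 27.7 and 38.8 CPM at day 16. These groups overlapped, with a log2 fold change of 1.17 ± 0.25 (edgeR adjusted p = 0.000112). Rises were also called for clec-78, clec-147, clec-89, clec-5 and clec-142, with log2 fold changes between 0.92 and 2.71.

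Some members peaked in mid-life. The level of clec-5 (WBGene00016450, chromosome III, 4881888 to 4883606) was 1.13, 7.16 and 18.1 CPM at day 4 and 21.5, 58.0 and 106 CPM at day 8 in trials 2 and 3 (log2 fold change 3.16 ± 0.30, edgeR adjusted p = 2.39e-10). The level of clec-80 was 4.73, 10.2 and 26.1 CPM at day 4 and 35.7, 49.9 and 75.7 CPM at day 8 (log2 fold change 2.23 ± 0.26, edgeR adjusted p = 4.78e-09). No day 8 library was as low as the highest day 4 library for either gene.

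The same ageing step was measured in other libraries. In the DMSO libraries of the treated N2 series, 45 of 81 tested members were lower and 13 higher at day 16 than at day 2 (52.7% of all genes called). Of the 42 members that fell in trials 2 and 3, 37 also fell there, which is 88.1% of the first list and 92.5% of the second. Of the 8 members that rose in trials 2 and 3, 4 also rose there (clec-266, clec-264, clec-89 and clec-142), which is 50% of the first list and 80% of the second. The differences of clec-146 (0.40 ± 0.29 on the log2 scale), clec-5 (0.44 ± 0.41), clec-78 (0.34 ± 0.71) and clec-147 (0.76 ± 0.50) did not pass the test in the treated series. From day 4 to day 12, 40 of 54 members were lower and 7 higher in PX991 (36.1% of all genes called), and 42 of 59 were lower and 4 higher in EU1 (46%). Of the 39 members lower at that step in trials 2 and 3 (55.3% of all genes called), 35 had been tested in PX991 and 34 of these also fell there. In EU1, 38 had been tested and 35 fell. Whole worms were sequenced, so fewer intestinal cells and less RNA per cell cannot be told apart. Of the 11 tested intestinal marker genes, 9 fell and 1 rose between days 2 and 16 in trials 2 and 3, and of the 12 muscle markers 8 fell and 1 rose. Their part in the decline of the lectin genes was not tested.

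**Figure D2:**
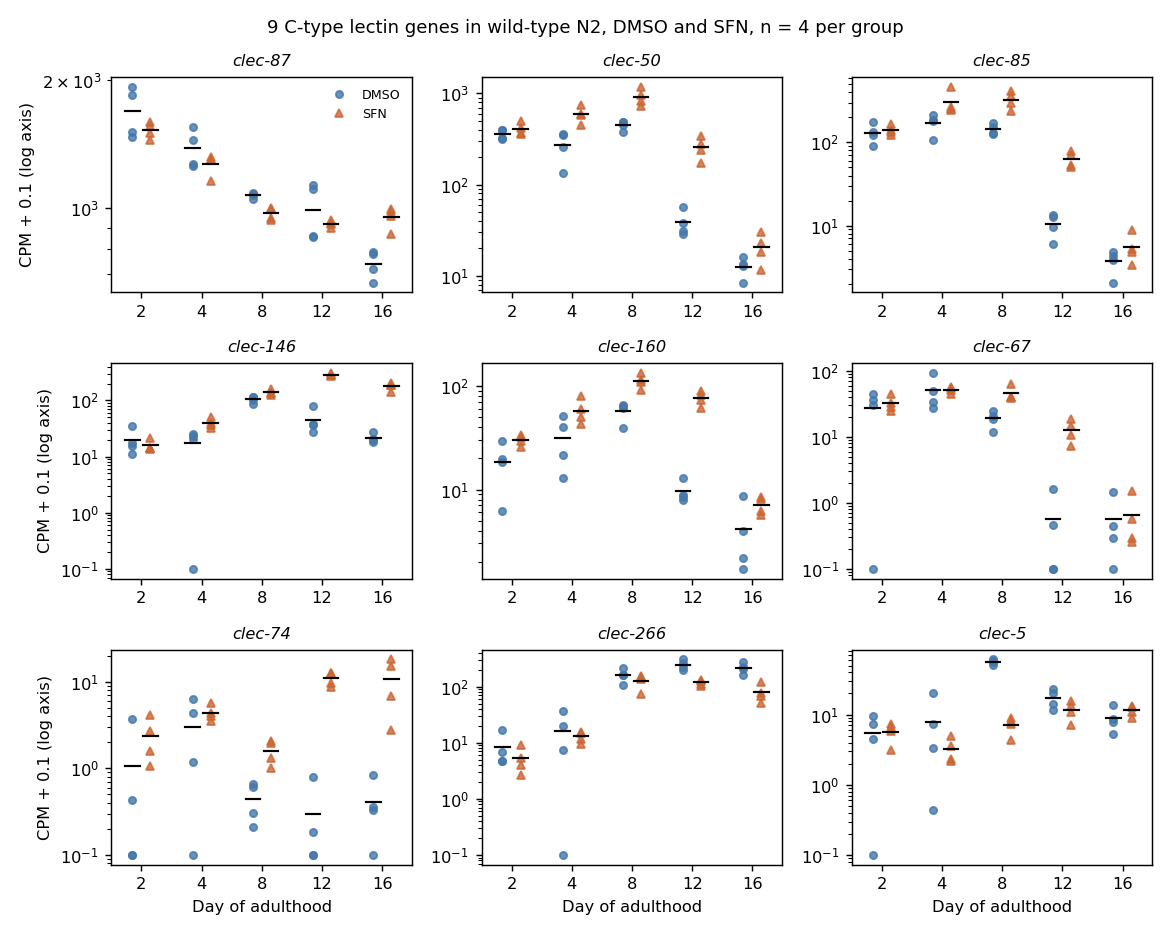
Levels of 9 C-type lectin genes in every N2 library of the SFN series (vertical axis, CPM plus 0.1 on a log axis) by adult age (days) and treatment; points are libraries and bars are group means. Most genes shown decline with age on DMSO, clec-266 rises, and clec-146 stays higher with SFN at days 12 and 16.

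Exposure to SFN changed few members in young worms and many at day 12. At day 2, 1 of 81 tested members was higher and 1 lower (4.33% of all genes called, 2.7% higher and 1.63% lower). The level of clec-90 was 19.02, 16.3, 15.9 and 11.7 CPM in SFN replicates 1 to 4 and 0, 8.39, 7.54 and 1.54 CPM in DMSO replicates 1 to 4. All SFN libraries were above all DMSO libraries (log2 fold change 1.47 ± 0.36, edgeR adjusted p = 0.0136), and the value of 0 belonged to the shallow DMSO replicate 1. Without that library and the shallow day 4 library, the log2 fold change of clec-90 was 1.32. The level of clec-91 was lower by a small amount, -0.38 ± 0.11 on the log2 scale (edgeR adjusted p = 0.0376), with overlapping groups. No member was called at day 2 when the fit used only the libraries compared.

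At day 4, 12 of 81 members were higher with SFN and 1 was lower (10.3% of all genes called, 7.06% higher and 3.24% lower). The median log2 fold change was 0.49 over the members and 0.10 over all genes. The members' median was 0.35 when those with 0 counts in a group were set to their bound, or to 0 where no bound could be given. Only 1 member had such a bound. The level of clec-50 was 741, 587, 576 and 448 CPM with SFN and 260, 346, 361 and 133 CPM with DMSO. Its groups were separate (log2 fold change 1.05 ± 0.25, edgeR adjusted p = 0.00658). The level of clec-62 was 126, 96.8, 90.7 and 81.8 CPM with SFN and 53.3, 48.9, 80.7 and 25.5 CPM with DMSO, with a difference of 0.80 ± 0.19 (edgeR adjusted p = 0.00414), and the highest DMSO library lay just under the lowest SFN library. In both genes the lowest DMSO value came from the shallow replicate 4. Without the shallow libraries, the log2 fold change of clec-50 was 0.87 (edgeR adjusted p = 0.0151), and 13 members were called.

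The transcript of clec-89 was found in every SFN library at day 4, at 1.85, 1.56, 0.490 and 0.534 CPM, and at 0 counts in all 4 DMSO libraries. Against a floor of 3 counts over the DMSO group it was at least 5.43-fold higher. Other members higher at day 4 were clec-84, clec-56, clec-150, clec-146, clec-186, clec-85, clec-63, clec-3 and 1 clec-209 copy, with log2 fold changes between 0.65 and 2.39, and clec-210 was lower at -1.75. This count rested on few libraries. It was 4 without SFN replicate 1 and 21 without DMSO replicate 3, and 0 when only the day 4 libraries were fitted. Markers of other tissues were also higher with SFN at day 4. These were 8 of 12 muscle markers (summed level 2069 to 2432 CPM against 799 to 1781 CPM in DMSO) and 4 of 11 intestinal markers (1643 to 2708 CPM against 878 to 1431 CPM). Also higher were 2 of 3 tested hypodermis markers and 2 of 10 neuronal markers, and in these 4 lists none was lower. Of 15 oocyte and germline markers 1 was higher and 1 lower, and of 17 tested sperm markers 1 was higher. Their part in the lectin results was not tested.

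At day 8, 7 members were higher and 3 lower (3.53% of all genes called, 2.84% higher and 0.683% lower). In all 10 the SFN and DMSO libraries did not overlap, and the matching share over all called genes is not given here. The level of clec-5 was 7.97, 8.83, 7.28 and 4.29 CPM with SFN and 55.6, 61.3, 58.2 and 51.4 CPM with DMSO. It was lower in every SFN library (log2 fold change -2.98 ± 0.39, edgeR adjusted p = 4.43e-07), at the age when it peaked in DMSO controls of trials 2 and 3. The level of clec-121 (WBGene00021291, chromosome II, 3102318 to 3104736) was 0.488, 0, 0.235 and 0.903 CPM with SFN and 20.4, 11.4, 18.6 and 7.83 CPM with DMSO. This was the largest fall of the family under SFN (log2 fold change -5.22 ± 0.72, edgeR adjusted p = 3.95e-06).

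The DMSO level of clec-121 at day 8 was not shared by the other N2 trials. Its mean was 14.5 CPM in the treated series, 3.30 CPM in trial 2 and 0.157 CPM in trial 3. The mean of clec-5 at that age was 56.6, 39.3 and 84.5 CPM in the same order, so that its DMSO level was high in all of them. Sperm marker genes also differed at day 8 in the treated series: their summed level was 19.3 to 43.1 CPM with SFN and 49.7 to 105 CPM with DMSO, and 3 of 17 tested markers were lower. In the SFN group 1 marker of that list was at 0 in all libraries, and the part of sperm RNA in the falls of clec-5 and clec-121 was not tested.

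Of the members that were higher at day 8, clec-186 (chromosome IV, 12866109 to 12869080) had levels of 220, 167, 141 and 182 CPM with SFN and 70.3, 78.6, 59.8 and 75.5 CPM with DMSO (log2 fold change 1.33 ± 0.24, edgeR adjusted p = 0.000283). The level of clec-85 was 413, 296, 237 and 361 CPM with SFN and 154, 131, 127 and 173 CPM with DMSO (1.17 ± 0.23 on the log2 scale, edgeR adjusted p = 0.00091). For both, each SFN library exceeded each DMSO library. Higher levels were also called for clec-3, clec-265, clec-50, clec-173 and clec-62, with log2 fold changes from 0.59 to 2.38, and clec-10 was lower at -2.24. The number of members called at day 8 was 4 without SFN replicate 1. At day 8, 6 of 12 muscle markers, 2 of 11 intestinal markers and 1 of 3 hypodermis markers were higher with SFN.

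Day 12 had the broadest change. With SFN, 30 of 81 tested members were higher and 4 were lower, which is 42% of the members against 18.8% of all 12735 genes (13.8% higher and 4.99% lower). The median log2 fold change was 0.58 over the members and 0.00 over all genes (0.0047). In 31 of the 34 called members the SFN and DMSO libraries did not overlap. The matching share over all called genes is not given here, so this is not shown to be particular to the members. Between 28 and 34 members were called when any 1 of the 8 libraries was left out.

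The largest differences were in genes with few counts in the DMSO controls of that age. The level of clec-74 (WBGene00021585, chromosome IV, 3957005 to 3960185) was 8.69, 9.64, 12.3 and 12.5 CPM with SFN and 0.702, 0, 0.0826 and 0 CPM with DMSO. The groups were far apart (log2 fold change 5.70 ± 0.79, edgeR adjusted p = 1.91e-07), with 9 counts in all DMSO libraries. The DMSO mean of clec-74 was already low in young worms, at 0.98 CPM at day 2 and 2.92 CPM at day 4. The level of clec-67, which lies in the same run of genes, was 18.5, 14.5, 10.7 and 7.29 CPM with SFN and 0, 0.356, 0 and 1.495 CPM with DMSO (4.603 ± 0.64, edgeR adjusted p = 8.74e-07). Within that run, 6 members were tested and clec-67, clec-71 and clec-74 were higher, while the log2 fold changes of the other tested members lay at or above -0.71.

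Abundant members also rose. The level of clec-50 was 341, 279, 237 and 171 CPM with SFN and 30.5, 56.7, 38.2 and 28.6 CPM with DMSO, a log2 fold change of 2.74 ± 0.26 (edgeR adjusted p = 5.75e-10). The level of clec-146 was 307, 279, 283 and 269 CPM with SFN and 35.9, 27.7, 37.7 and 78.3 CPM with DMSO, a log2 fold change of 2.66 ± 0.24 (edgeR adjusted p = 3.60e-11). For each of these genes the lowest SFN library was at least as far above the highest DMSO library as the DMSO libraries were from each other. The level of clec-160 (WBGene00017322, chromosome III, 8272956 to 8275971) was 90.2, 83.1, 73.4 and 62.2 CPM with SFN and 7.90, 12.9, 8.75 and 8.43 CPM with DMSO (3.03 ± 0.32, edgeR adjusted p = 6.22e-10).

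Genes with a known part in infection were also higher. The level of clec-85 was 78.9, 70.2, 53.3 and 50.6 CPM with SFN and 9.39, 13.3, 5.95 and 12.7 CPM with DMSO (2.61 ± 0.26, edgeR adjusted p = 7.37e-10). The level of clec-41 (WBGene00007153, chromosome V, 13134903 to 13138101), whose product has been reported to protect against Bacillus thuringiensis, was 216, 192, 156 and 145 CPM with SFN and 25.7, 41.2, 37.5 and 42.2 CPM with DMSO (2.27 ± 0.24, edgeR adjusted p = 4.54e-09). Neither gene's groups overlapped. Of the 16 members listed for a published role, clec-41, clec-49, clec-61, clec-67, clec-71, clec-85 and clec-86 were higher and clec-52 was lower. The differences of clec-4 (-1.04), clec-60 (1.27 ± 0.62) and clec-87 did not pass the test, and clec-17, clec-38, clec-39, clec-42 and clec-70 were too low to be tested.

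Members that were lower at day 12 were clec-266, clec-52, clec-89 and clec-88. The level of clec-266 was 103, 130, 128 and 112 CPM with SFN and 197, 222, 259 and 307 CPM with DMSO (log2 fold change -1.06 ± 0.29, edgeR adjusted p = 0.00774). The level of clec-52 was 2.97, 2.68, 2.15 and 3.64 CPM with SFN and 13.5, 12.8, 5.45 and 7.07 CPM with DMSO (-1.76 ± 0.42, edgeR adjusted p = 0.00143). All SFN libraries were lower for both genes. The abundant clec-88 was 366.5, 340, 367 and 363 CPM with SFN and 409, 515, 379 and 438 CPM with DMSO. That difference was small (-0.28 ± 0.091, edgeR adjusted p = 0.0253) and did not pass without the expression filter, without SFN replicate 2 or without DMSO replicate 2.

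Other cell-type markers moved at the same age. All 12 muscle markers were higher with SFN at day 12, with a summed level of 1088 to 1548 CPM against 375 to 466.01 CPM in DMSO. Of 11 intestinal markers 3 were higher and none lower, with a summed level of 1520 to 1887 CPM against 875 to 1250 CPM, and none of the intestinal markers was at 0. Of 3 tested hypodermis markers 2 were higher, with a summed level of the whole list of 148 to 231 CPM against 23.4 to 39.5 CPM. Their part in the rises of the lectin genes was not tested.

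At day 16, 11 members were higher and 2 lower (19.3% of all genes called, 11.9% higher and 7.45% lower), which is 16% of the tested members. The level of clec-74 was 2.69, 6.80, 18.01 and 15.1 CPM with SFN and 0.256, 0.737, 0 and 0.229 CPM with DMSO (log2 fold change 5.05 ± 0.77, edgeR adjusted p = 2.09e-06). The level of clec-146 was 139.9, 206, 188 and 185.9 CPM with SFN and 18.01, 27.5, 20.4 and 19.6 CPM with DMSO (3.07 ± 0.25, edgeR adjusted p = 8.61e-12). Both genes were higher in every SFN library. The most abundant member, clec-87, was 995, 986, 870.3 and 957 CPM with SFN and 669, 718, 789 and 779.5 CPM with DMSO.

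The difference of clec-87 was small, 0.36 ± 0.091 on the log2 scale (edgeR adjusted p = 0.00287), but its groups did not overlap. The level of clec-266 was 77.7, 119.8, 67.1 and 50.5 CPM with SFN and 163, 228, 210.4 and 271 CPM with DMSO, again lower in every SFN library (-1.47 ± 0.30, edgeR adjusted p = 0.000458). Of the 15 oocyte and germline markers, 10 were higher and 1 lower at day 16. Of the other lists, 5 of 12 muscle markers and 2 of 3 hypodermis markers were higher, and of 11 intestinal markers 3 were higher and 1 lower. Their part in the lectin results was not tested. The number of members called was 20 without DMSO replicate 3.

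Across the 5 ages, 45 members were called at 1 or more ages in either direction and 38 were higher at 1 or more. A total of 7 were higher at 3 or more ages, and these were clec-3, clec-50, clec-62, clec-85, clec-146, clec-173 and clec-186. Matching counts over all genes are not given here, so repeated calls are not shown to be more common among the members. The ages differ from each other by a direct test in some genes. The SFN effect in N2 was larger at day 12 than at day 4 for 14 members and smaller for 1 (4.48% of all genes called), and both ages stood in 1 fit. The differences of the effects were largest for clec-74 (5.35 ± 1.05 on the log2 scale), clec-210 (5.05 ± 0.81), clec-67 (4.56 ± 0.80) and clec-166 (2.98 ± 0.62). Among the 12 most abundant members, the effect was larger at day 12 for clec-47 (2.71 ± 0.50), clec-85 (1.83 ± 0.34), clec-1 (1.78 ± 0.30), clec-146 (1.75 ± 0.37), clec-50 (1.70 ± 0.35) and clec-41 (1.61 ± 0.33).

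**Figure D3:**
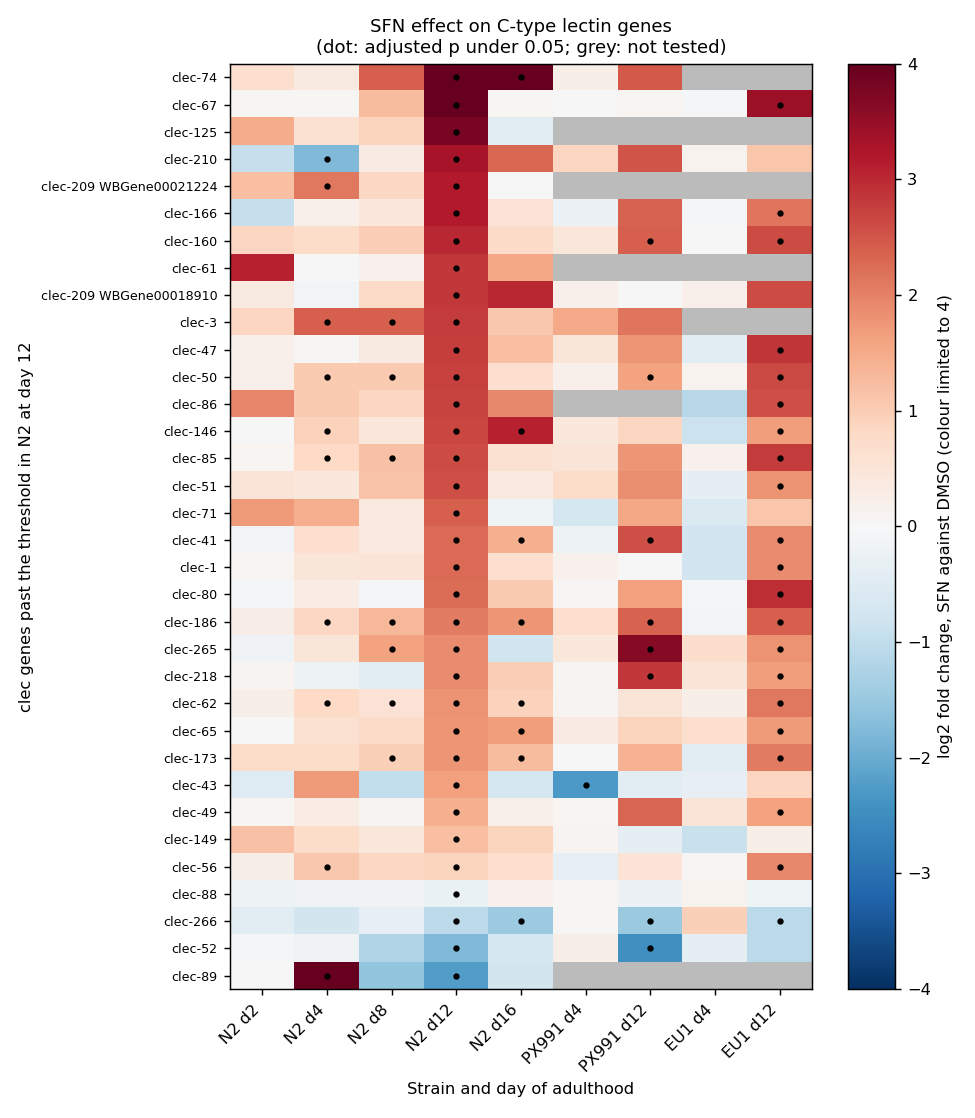
Log2 fold change with SFN against DMSO (colour, limited to 4 in either direction) of the 34 members called at day 12 in N2 (rows) in 9 comparisons by strain and age (columns); a dot marks an adjusted p under 0.05 and grey marks a gene that was not tested. The rows were chosen by the N2 day 12 column, which is therefore full of dots; none of the rows has a dot at day 4 in EU1.

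Most members that were higher with SFN at day 12 were among those that fell with age. Of the 42 members that fell from day 2 to day 16 in trials 2 and 3, 24 were higher with SFN at day 12 in the treated series, which is 57.1% of the first list and 92.3% of the 26 members of the second list tested in both. Of all 58 members tested with age, 72.4% fell. None of the 42 was lower with SFN at day 12 (edgeR). Of the 8 members that rose with age, clec-146 was higher with SFN and clec-266 and clec-89 were lower. Across the 58 members the age effect and the SFN effect at day 12 had a Pearson correlation of -0.59 and a Spearman correlation of -0.57, and 39 members had opposite signs. Across all 10868 genes tested in both, the Pearson correlation was -0.48, and 6309 genes had opposite signs. These are descriptions across genes, which are not independent replicates, and the libraries of the comparisons were different.

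The correlation of the members' age effect with the SFN effect was 0.03 at day 4 (Spearman -0.11), -0.50 at day 8 and -0.34 at day 16. Signs were opposite in 44 of 58 members at day 4, 42 at day 8 and 38 at day 16. Over all genes they were opposite in 7007 of 10868 at day 16, so the members' share at that age was near the background. The all-gene counts at days 4 and 8 are not given here. At day 12 the correlation was -0.55 over 49 members in PX991 and -0.59 over 56 members in EU1. Over all genes tested in both it was -0.52 in PX991, -0.53 in EU1 and -0.31 in N2 at day 16. The abundant clec-146 was called higher both with age in trials 2 and 3 and with SFN at day 12. In the treated series its age difference was not called: in the DMSO libraries of the treated series its mean was 19.9 CPM at day 2, 103.95 CPM at day 8 and 21.4 CPM at day 16, and with SFN it was 15.7, 141 and 180 CPM at these ages.

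**Figure D4:**
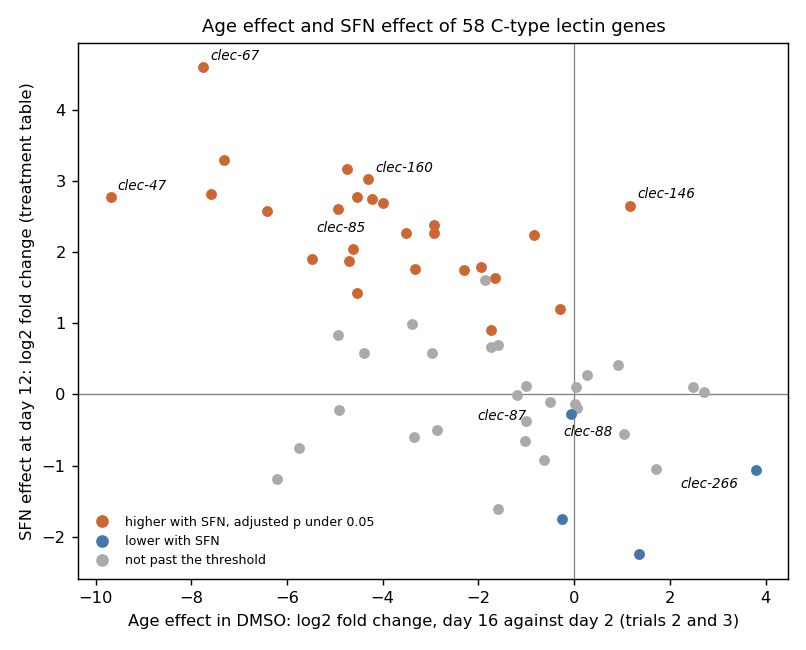
Log2 fold change from day 2 to day 16 in N2 DMSO libraries of trials 2 and 3 (horizontal axis) against the log2 fold change with SFN at day 12 in the treated N2 series (vertical axis) for 58 C-type lectin genes; each point is 1 gene. Most points lie to the left of 0, and clec-266 lies at the lower right. Of the 42 genes called lower with age, 24 were called higher with SFN, among them clec-47 and clec-67. Others with large falls, such as clec-190 and clec-223, were not.

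The daf-16 mutant PX991 was examined at days 4 and 12. At day 4, 1 of 54 tested members was called (0.506% of all genes called, 0.347% higher and 0.159% lower). The level of clec-43 (WBGene00019917, chromosome II, 944066 to 946157) was 4.07, 2.12, 3.49 and 3.03 CPM with SFN and 16.5, 11.9, 15.9 and 16.4 CPM with DMSO. All SFN libraries were lower (-2.28 ± 0.52 on the log2 scale, edgeR adjusted p = 0.0421), but the adjusted p was above 0.05 in each of the 8 fits that left out 1 library. At day 12, 7 members were higher and 4 lower (4.69% of all genes called, 2.43% higher and 2.25% lower). The median log2 fold change was 0.84 over the members and -0.02 over all genes.

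Among the members higher in PX991 at day 12, clec-41 had levels of 56.6, 33.99, 17.4 and 43.3 CPM with SFN and 7.04, 3.43, 14.97 and 4.11 CPM with DMSO (log2 fold change 2.59 ± 0.39, edgeR adjusted p = 0.000561). The level of clec-50 was 46.01, 25.75, 39.6 and 20.9 CPM with SFN and 12.0, 9.54, 9.69 and 9.04 CPM with DMSO (1.62 ± 0.26, edgeR adjusted p = 0.000418). The other members called higher were clec-83, clec-160, clec-186, clec-218 and clec-265, and the last of these had 3 counts in all DMSO libraries, as had clec-218. The level of clec-266 was 89.5, 102, 66.45 and 73.1 CPM with SFN and 248, 209, 237 and 254 CPM with DMSO (-1.49 ± 0.21, edgeR adjusted p = 0.000152). None of these genes had overlapping groups.

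The effect of SFN at day 12 was smaller in PX991 than in N2 for clec-146 and clec-1 by the test of the difference. The level of clec-146 in PX991 was 49.7, 33.5, 77.5 and 39.7 CPM with SFN and 32.3, 22.1, 22.9 and 27.95 CPM with DMSO (log2 fold change 0.85 ± 0.28, edgeR adjusted p = 0.0789). In the joint fit of 55 libraries its effect differed from that in N2 by -1.77 ± 0.51 (edgeR adjusted p = 0.0382). The level of clec-1 (WBGene00017772, chromosome V, 5700154 to 5701080) was 34.2, 27.3, 60.1 and 9.55 CPM with SFN and 45.97, 15.3, 27.3 and 21.4 CPM with DMSO, with groups that overlapped widely. Its effect differed from that in N2 by -2.19 ± 0.56 (edgeR adjusted p = 0.0182), where N2 had 2.27 ± 0.22.

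Of all 12589 genes in that fit, 3.92% differed between PX991 and N2 at day 12 (0.961% higher and 2.96% lower) and 2 of 80 members did, so the members' share was no larger than the background. The difference for clec-146 was lost in 10 of 24 other settings and that for clec-1 in 2. Both were lost when PX991 DMSO replicate 1 or SFN replicate 4 was left out, which gave 0 members. At day 4, clec-43 differed by -3.99 ± 0.93 (edgeR adjusted p = 0.0452; 0.254% of all genes called, 0.127% higher and 0.127% lower), and this was lost in 12 of 24 settings. PX991 libraries held 585309 to 5460987 counts and those of the treated N2 series 444501 to 12536097, and 54 members were tested in PX991 against 81 in N2. Between N2 and PX991, 6 of the 26 members higher in N2 were also called in PX991 (23.1% of 26 and 85.7% of 7). The matching share over all genes is not given here.

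In the skn-1 mutant EU1, no member was called at day 4 by edgeR, where 6 of 59 had an unadjusted p under 0.05, and DESeq2 called 0 and limma-voom 1 (0.251% of all genes called by edgeR, 0.197% higher and 0.0537% lower). At day 12, 24 members were higher and 4 lower (19.3% of all genes called, 11.2% higher and 8.1% lower), which is 47.5% of the tested members. The median log2 fold change was 1.10 over the members and 0.00 over all genes (-0.00027). In 14 of the 28 called members the groups did not overlap, and the matching share over all called genes is not given here. When replicates 1 to 3, the first collection, were used alone, 16 members were called.

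The level of clec-80 in EU1 at day 12 was 20.0, 26.8 and 41.7 CPM (lowest, median and highest of 6 libraries) with SFN and 1.47, 3.43 and 6.92 CPM with DMSO. The libraries of both groups were well apart (log2 fold change 2.96 ± 0.33, edgeR adjusted p = 3.83e-06). The level of clec-50 was 22.6, 37.96 and 63.6 CPM with SFN and 4.43, 5.71 and 8.25 CPM with DMSO (2.66 ± 0.36, edgeR adjusted p = 0.00016). The level of clec-146 was 133, 216 and 320.2 CPM with SFN and 48.0, 68.8 and 91.3 CPM with DMSO (1.66 ± 0.29, edgeR adjusted p = 0.00137). Neither clec-50 nor clec-146 had overlapping groups.

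The level of clec-1 was 32.2, 44.1 and 69.7 CPM with SFN and 4.43, 13.1 and 16.5 CPM with DMSO (1.89 ± 0.33, edgeR adjusted p = 0.0013). In contrast to PX991, the groups were separate, but the difference between the mutants was not tested. The level of clec-266 was 33.7, 66.6 and 87.03 CPM with SFN and 75.9, 107.7 and 239 CPM with DMSO, and the groups overlapped. Its log2 fold change was -1.07 ± 0.35 (edgeR adjusted p = 0.0398), which became -1.08 with an adjusted p of 0.0532 when replicate number was a block.

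In a run of genes on chromosome IV from 2823746 to 2855456, the effect of SFN at day 12 differed between EU1 and N2 for clec-83 alone. Of its 5 members, 4 were tested (clec-80, clec-83, clec-84 and clec-85), and all 4 were higher with SFN in EU1 at day 12, with log2 fold changes from 1.31 to 2.96, whereas 2 were higher in N2 (clec-80 and clec-85). The level of clec-83 (WBGene00021879, 2839371 to 2841472) in EU1 was 21.5, 28.998 and 65.97 CPM with SFN and 5.27, 13.6 and 18.9 CPM with DMSO (1.41 ± 0.33, edgeR adjusted p = 0.00771). Its groups did not overlap. In N2 its log2 fold change was -0.0068 ± 0.20, and the difference of the effects was 1.43 ± 0.37 (edgeR adjusted p = 0.0312; 1.45% of all genes called, 0.334% higher and 1.11% lower). Of 80 members in that test 1 was called, and it was not called with the replicate block or with median-of-ratios scaling. The differences of clec-80 (0.73 ± 0.50), clec-84 (0.66 ± 0.54) and clec-85 (0.20 ± 0.54) did not pass that test. The rise of clec-83 was not particular to EU1. In PX991 at day 12 it was also called higher (1.22 ± 0.28, edgeR adjusted p = 0.0136), without overlap. Its difference from N2 there was 1.29 ± 0.48, which did not pass the test (edgeR adjusted p = 0.113).

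At day 4 the SFN effect in EU1 was lower than in N2 for 3 of 80 members (9.6% of all genes called, 3.34% higher and 6.26% lower). The level of clec-146 in EU1 at day 4 was 16.5, 16.5, 14.8, 29.4 and 39.1 CPM in the 5 SFN libraries and 18.5, 45.4 and 66.5 CPM (lowest, median and highest) in DMSO. These overlapped (log2 fold change -0.85 ± 0.35, edgeR adjusted p = 0.284), while the difference from N2 was -1.78 ± 0.49 (edgeR adjusted p = 0.0173). The other members were clec-264 (-1.49 ± 0.49, edgeR adjusted p = 0.0437) and clec-89, for which N2 DMSO libraries had 0 counts, so that no size is given. Without the N2 DMSO replicate 3 at day 4, 12 members were called, and without EU1 DMSO replicate 6 only 1.

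**Figure D5:**
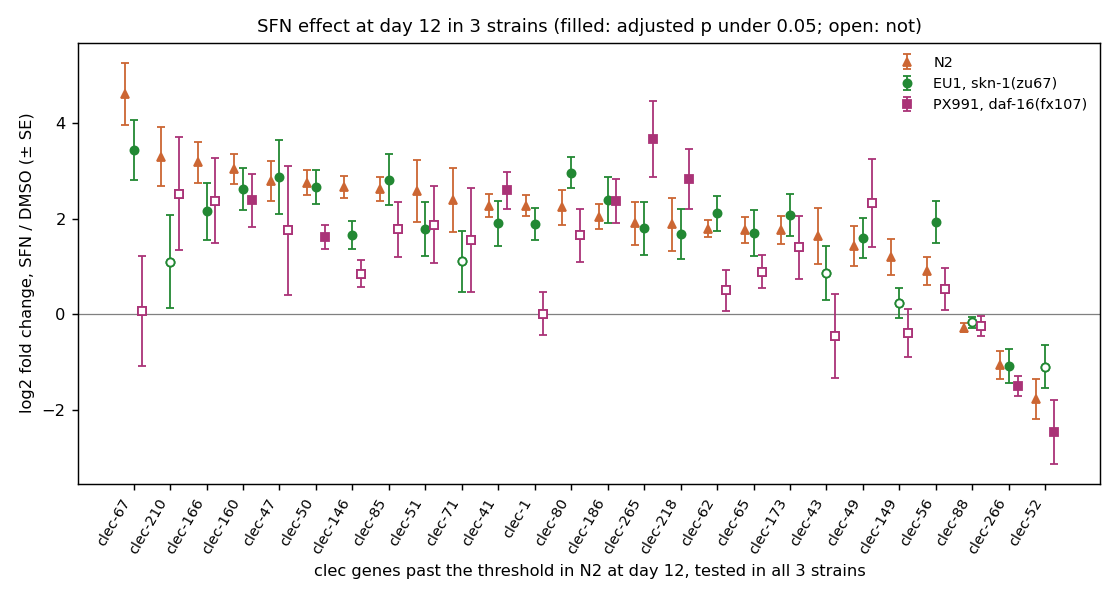
Log2 fold change with SFN against DMSO at day 12 (vertical axis, with SE) of 26 C-type lectin genes (horizontal axis) in N2, PX991 and EU1. Filled points had an adjusted p under 0.05 and open points did not. The genes clec-50, clec-41, clec-160 and clec-186 are filled above 0 in all strains, and clec-266 is filled below 0 in all strains.

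A total of 50 members were tested at day 12 in all 3 strains. The members called higher in all of them were 6, namely clec-160, clec-50, clec-41, clec-186, clec-265 and clec-218. Of these, clec-265 and clec-218 each had 3 counts in all PX991 DMSO libraries together. Of the members higher in N2 and tested in both, 20 were also higher in EU1, which is 80% of 25 and 83.3% of 24. Matching shares over all genes are not given here for these overlaps. Across 58 members the log2 fold changes of N2 and EU1 had a Pearson correlation of 0.79, against 0.73 over all genes, and across 52 members those of N2 and PX991 had 0.67, against 0.46 over all genes. Tissue markers also moved in the mutants at day 12. In EU1, 6 of 11 intestinal markers were higher and 1 lower (summed level 444 to 696 CPM with SFN, 179 to 346 CPM with DMSO). In PX991, 2 of the intestinal markers were higher (689 to 1151 CPM against 336 to 584 CPM). Of 12 muscle markers, 6 were higher in EU1 (summed level 415 to 1061 CPM against 263 to 474 CPM) and 1 in PX991. Both tested hypodermis markers were higher in EU1 and neither was called in PX991, where 3 of 10 neuronal markers were lower. Their part in the lectin results was not tested.

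Genes that regulate intestinal immune genes were followed as a fixed list of 25. With SFN in N2, 2 were higher at day 2, 6 at day 4, 1 at day 8, 4 at day 12 and 2 at day 16, and 1 was lower at day 16. Of all genes, 2.7%, 7.06%, 2.84%, 13.8% and 11.9% were higher at these ages, so that the counts at days 12 and 16 were near the background. The 6 higher at day 4 were sek-1 (log2 fold change 1.62), the kinase that activates PMK-1, the phosphatase gene vhp-1 (0.58), the TFEB-like factor hlh-30 (1.08), zip-2 (0.79), the BMP-like ligand dbl-1 (2.00) and daf-16 (0.48). At day 12 these were vhp-1 (0.42), the receptor gene fshr-1 (0.90), zip-2 (0.72) and the receptor gene sma-6 (0.99). The gene pmk-1 did not pass the test in N2 at day 12.

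In EU1 at day 12, the intestinal GATA factors elt-2 (0.70) and elt-7 (1.12), fshr-1 (0.87) and sma-6 (0.65) were higher and pmk-1 was lower (-0.94), which is 4 and 1 of 25 where 11.2% of all genes were higher and 8.1% lower. In PX991 at day 12, sek-1 was lower (-0.82) and no other of the 24 tested was called. With age, from day 2 to day 16 in trials 2 and 3, 10 of 24 rose and 4 fell, where 32.7% of all genes rose and 31% fell. Of the 10 that rose, only tir-1 (2.18), the adaptor at the head of the PMK-1 pathway, is named here. The 4 that fell included fshr-1 (-1.46), elt-7 (-0.98) and elt-2 (-0.77). Whether these transcripts are linked to the decline of the lectin genes was not tested.

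By group means over the 10 N2 groups of the treated series, the members most like clec-87 were clec-210 (Pearson r = 0.91), clec-190 (0.90) and clec-47 (0.90) among 80 compared. The members most like clec-74 were clec-149 (0.74), clec-61 (0.52) and clec-146 (0.52). No member thus reached as high a correlation with clec-74 as clec-210 did with clec-87. A correlation of group means leaves out the size of changes and does not show a shared response to SFN. With SFN at day 12 in N2, clec-47 and clec-210 were called higher, while clec-87 was not called.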

How the data were processed

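The authors' deposited tables hold raw read counts per gene for each library, made with featureCounts of Subread 2.0.2 on WBcel235, per the submitters' processing notes. Per the file headers of the treated N2 table, reads over exons were summed per gene of Ensembl release 108 with no strand setting and no option to count reads with several matches. The aligner, and the options for the other tables, are not given in the sources used here. Symbols came from Ensembl release 115, and all 46926 identifiers matched. All sample columns were used (0 left out).

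Totals per library were 444501 to 12536097 in the treated N2 series (40 libraries), 1071727 to 8611922 in trials 2 and 3 (40), 585309 to 5460987 in PX991 (16) and 2056562 to 10286438 in EU1 (23). Counts were scaled by TMM, filtered with filterByExpr and tested with edgeR 4.0.16 (quasi-likelihood, robust) in R 4.3.3. Each series had its own fit, with a term for trial or for EU1 collection, and a joint fit of 55 libraries tested differences between strains. Benjamini-Hochberg adjustment ran over all genes of a fit, and an adjusted p under 0.05 was called. The ± after a log2 fold change is its SE. CPM values are TMM-scaled and computed here. Floors of 3 counts cover counting error only. The procedure was also tested on simulated data with known changes.

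Members and gene lists were chosen with earlier results of these data known. Named members are those called, moved the same way in every treated library, and largest in change (up to 8 per direction), with the 12 most abundant members and those with a published role. Of these, the ones given in full were chosen after their values were seen. Alternatives were DESeq2 1.42.0, limma 3.58.1 (voom with quality weights), median-of-ratios scaling, other filters, fits of only the groups compared, the replicate block, single trials or collections, and leaving out each library. Replicate number was not a term of the main fits. For the replicate block, numbers were taken as pairs in EU1 only. There, deviations of same-numbered SFN and DMSO libraries correlated at 0.122 to 0.275 at day 4 and 0.126 to 0.481 at day 12. Those of differently numbered libraries correlated at -0.261 to 0.354 at day 4 and -0.382 to 0.304 at day 12, so the ranges overlapped. Promoter and protein sequences were not analysed here.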

Additional observations from a re-analysis of the deposited data

Results flagged for a closer look

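In 134 groups of values checked, 6 had 1 library that stood apart from the rest, and chance gives about 1 in 20. The level of clec-67 was 0.463 CPM in 1 of the day 16 DMSO libraries of trial 2, and clec-85 was 5.09 CPM in 1 of that group. In N2 at day 12, clec-74 stood apart at 0.702 CPM in DMSO replicate 1, and clec-88 at 340 CPM in SFN replicate 2. The level of clec-43 was 11.9 CPM in PX991 DMSO replicate 2 at day 4. The family's share of counted reads was 0.305% in 1 EU1 library with SFN at day 4, replicate 3. The DMSO library of replicate 3 at that age was not flagged, but its share of 0.268% was also the lowest of its group.

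The effect of SFN differed between strains or ages, by the test of the difference, for the following members. Between PX991 and N2 the differences (log2) were -3.99 for clec-43 at day 4, and -1.77 for clec-146 and -2.19 for clec-1 at day 12. Between EU1 and N2 they were -1.49 for clec-264, -1.78 for clec-146 and -6.17 for clec-89 at day 4, and 1.43 for clec-83 at day 12.

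Between day 12 and day 4 in N2, the effect was larger at day 12 by 5.35 for clec-74, 5.05 for clec-210, 4.56 for clec-67, 2.98 for clec-166, 2.71 for clec-47 and 2.29 for clec-160. It was also larger by 1.94 for clec-80, 1.83 for clec-85, 1.78 for clec-1, 1.75 for clec-146, 1.70 for clec-50, 1.61 for clec-41, 1.22 for clec-186 and 0.98 for clec-62. For clec-89 the difference was -8.03. Both values for clec-89 rest on a DMSO group with 0 counts and give no size. The difference for clec-80 was lost in 13 of 24 other settings.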

How the results depend on the processing

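At day 12, members called with SFN in N2 ranged from 28 to 34 when a library was left out, and in EU1 from 23 to 29. Under other settings, counts of called members moved by more than 1.5 times as follows. With limma-voom, N2 had 4 at day 2 (main 2), 4 at day 4 (13), 34 at day 8 (10) and 23 at day 16 (13). PX991 had 5 at day 4 (1) and 6 at day 12 (11), EU1 had 1 at day 4 (0), and 29 members moved from day 2 to day 4 with age (19). With only the groups compared, N2 had 0 at day 2, 0 at day 4 and 28 at day 8, and PX991 had 4 at day 4 and 3 at day 12. With no expression filter, N2 had 18 at day 8, PX991 4 and EU1 8 at day 4, and 85 (main 50) and 73 (45) were called with age from day 2 to 16 and day 4 to 12. DESeq2 gave 3 in PX991 at day 4. Replicates 1 to 3 alone gave 1 in EU1 at day 4 and 16 at day 12 (28). Trial 3 alone gave 7 from day 12 to 16 (12). For the difference from N2, EU1 at day 4 (3) had 10 with DESeq2, 5 with median-of-ratios scaling and 11 with no filter. EU1 at day 12 (1) had 2 with DESeq2, 7 with voom, 0 with median-of-ratios scaling, 6 with no filter, 0 with the replicate block and 6 with only the groups compared. PX991 at day 12 (2) had 7 with voom and 5 with no filter, and at day 4 (1) 5 with no filter and 0 with the replicate block. The cause was not tested.

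Leaving out 1 library, the count ranged from 1 to 2 in N2 at day 2, 4 to 21 at day 4, 4 to 8 at day 8 and 11 to 20 at day 16, and was 0 in PX991 at day 4. For the differences from N2 it was 0 to 2 in PX991 at day 4 and at day 12, 1 to 12 in EU1 at day 4 and 0 to 2 at day 12. With the replicate block, where same-numbered EU1 libraries were taken as pairs, 27 members were called in EU1 at day 12 (28), and clec-266 lost its call there. In N2 and PX991 same-numbered libraries did not pair, and the block gave 34 in N2 at day 12 and 10 in PX991.

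Over the called genes named, the settings kept the direction, and either kept the call or gave no adjusted p, 5700 times. They lost the call 331 times, and the sign of the estimate reversed 1 time. With trial 2 alone, the value was 1.65 for clec-86 from day 4 to day 8, 1.30 for clec-52 from day 2 to day 16, and 0.045 for clec-150 from day 2 to day 16 (main -1.01). Median-of-ratios scaling shifted the median of all genes by -0.11 for the EU1 difference at day 4. Depth limits members of low level: 159 of 240 were not tested in the treated N2 series.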
